A study of Neurospora crassa with 12 samples.

Results

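The genes described here had higher mRNA levels in the libraries labelled Si*adat2* than in the WT libraries in both kinds of mRNA-seq of the series. A gene was a member if the ratio of its mean FPKM (fragments normalized to transcript length and library size), Si*adat2* over WT, was above 2 in the independent mRNA-seq and in the accompanying mRNA-seq. Both means had to be above 0, both Si*adat2* libraries had to lie above both WT libraries, and the Si*adat2* mean had to reach 10 FPKM, in each kind. Of 8949 genes with a value in both kinds, 1141 passed the ratio in the independent kind, 1981 in the accompanying kind and 425 in both. After the requirement that libraries did not overlap, 385 were left, and 241 of them reached 10 FPKM. These 241 genes (2.69% of the 8949) are the members. The same values chose them, so their levels and ratios are given as a description.

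*N. crassa* grows as branched hyphae, the mycelium, and makes orange asexual spores, the conidia, on aerial hyphae when light, air or lack of nutrients induce it. Conidiation runs through a cascade of regulators such as the transcription factor FL, and the spores are coated with a hydrophobin and coloured by carotenoids. When amino acids run short, fungi raise the translation of a bZIP activator, CPC-1 in *N. crassa* and GCN4 in *Saccharomyces cerevisiae*, which turns on amino acid synthesis genes of many pathways at once. ADAT2 is a subunit of the deaminase that changes adenosine to inosine at the wobble position of tRNA anticodons.

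Each kind of mRNA-seq had 2 libraries labelled Si*adat2* and 2 labelled WT, all from mycelia. Si*adat2* carries an inverted repeat of an *adat2* segment at the *his-3* locus, driven by the *qa-2* promoter, in the strain 301-6 (*bd*, *A*, *his-3*). WT is the strain 87-3 (*bd*, *a*), so the strains differ in mating type and at *his-3* as well as in the construct, and these differences cannot be told apart from silencing. Both strains grew in medium with 0.1% glucose, arginine and 0.01 M quinic acid (QA), the inducer of the promoter. They were kept in plates for 3 days and then in shaken flasks for 1 day. The study states constant light and room temperature for all strains. The accompanying libraries were made beside ribosome profiling with the ARTseq kit, after 10 min in cycloheximide (CHX, 50 µg/ml), and the independent ones with TruSeq reagents and no CHX. The stated culture conditions are otherwise the same. The study states that the Joint Genome Institute performed the mRNA-seq of the independent kind. The kinds thus differ in drug, kit and read mapping, and the sequencing site may differ too. FPKM was normalized separately in each, so levels are not tested across them.

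The targeted gene, *adat2*, was not measured as lower under the Si*adat2* label in these libraries. The study reports a large fall of its mRNA on silencing by qRT-PCR. It also reports, by tRNA sequencing, a fall of inosine at the wobble position. *adat2* (NCU01888, NC12 chromosome I from 2138159 to 2142235) was listed at 0 in all 4 independent libraries. In the accompanying kind it had 4.46 and 14.1 FPKM in the libraries labelled Si*adat2*, against 3.53 and 4.54 FPKM in WT, and did not pass edgeR's quasi-likelihood test (Benjamini-Hochberg adjusted p = 0.116). Reads from the induced repeat and from the gene itself cannot be told apart in these counts. The accompanying libraries held 1547105 and 2777576 reads under the Si*adat2* label and 961703 and 2361460 reads under WT, while the depth of the independent libraries is unknown. Over all genes above 0 in every library of a kind the median log2 ratio was -0.12 in the independent kind and 0.33 in the accompanying kind, so the accompanying ratios below stand on a baseline above 0. With each library scaled to the same median gene, 188 genes met the criteria, and 179 of them were members.

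The labelled tissue was checked against markers of conidia and conidiating cells (*con-6*, *con-8*, *con-10*, *con-13*, *eas*, *fl*), of which *con-10*, *con-13* and *fl* are members. The summed level of the 5 markers with an independent value was 4598 and 6023 FPKM in the libraries labelled Si*adat2*, against 2410 and 2352 FPKM in WT. Over all 6 markers in the accompanying kind it was 155177 and 125651 FPKM under the Si*adat2* label, against 4058 and 4221 FPKM in WT. Of these, *eas*, which has no independent value, gave 126424 and 97054 FPKM under the Si*adat2* label and 2183 and 2293 FPKM in WT. Of the independent sums, *con-6* gave 3234 and 4496 FPKM under the Si*adat2* label and 1961 and 1939 FPKM in WT. The sums thus rest mostly on 1 or 2 genes, and on unlike sets of markers in the kinds. None of the 6 was at 0 in a library with a value for it, except *con-13* in WT replicate 1 of the accompanying kind. *eas*, the hydrophobin of the spore coat, took 6.95% and 5.29% of the accompanying reads under the Si*adat2* label and 0.122% and 0.127% in WT. The markers' part in the results below was not tested, and more cells of a type and more RNA per cell cannot be told apart in bulk samples. The genes of mating type *A* were at 0 or below 1 FPKM in every library, so they did not serve as a check of strain.

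In the independent mRNA-seq the median ratio over the members was 3.48, with a range of 2.02 to 126, and 98 members had a ratio above 4. In the accompanying mRNA-seq the median was 4.04, with a range of 2.00 to 163, and 123 had a ratio above 4. A ratio above 4 in both kinds was seen for 62 members and above 10 in both kinds for 19. Above 2-fold were 14.8% of all genes with both means above 0 in the independent kind and 23.7% in the accompanying kind, and the Si*adat2* libraries lay above the WT libraries for 29.4% and 47.7% of the 8949 genes. The lower of the Si*adat2* libraries was more than 2 times the higher of the WT libraries for 206 members in the independent kind, for 197 in the accompanying kind and for 171 in both.

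By the tests across all genes, limma called 228 of the 241 members higher in the independent kind (20.9% of 7549 genes tested were called higher), and edgeR called 229 of the 240 that it tested in the accompanying kind (23.9% of 7362 genes). Called in both were 216 members, 12 were called in the independent kind alone and 13 in the accompanying kind alone. The rule used these contrasts, so nothing is read from these shares. Without WT replicate 1 of the independent kind limma called 148 of the members, and without WT replicate 2 it called 140. Among the members that a test did not call were *nit-3*, which encodes nitrate reductase, in the accompanying kind, and NCU04583, an acetyltransferase, in the independent kind.

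**Figure D1:**
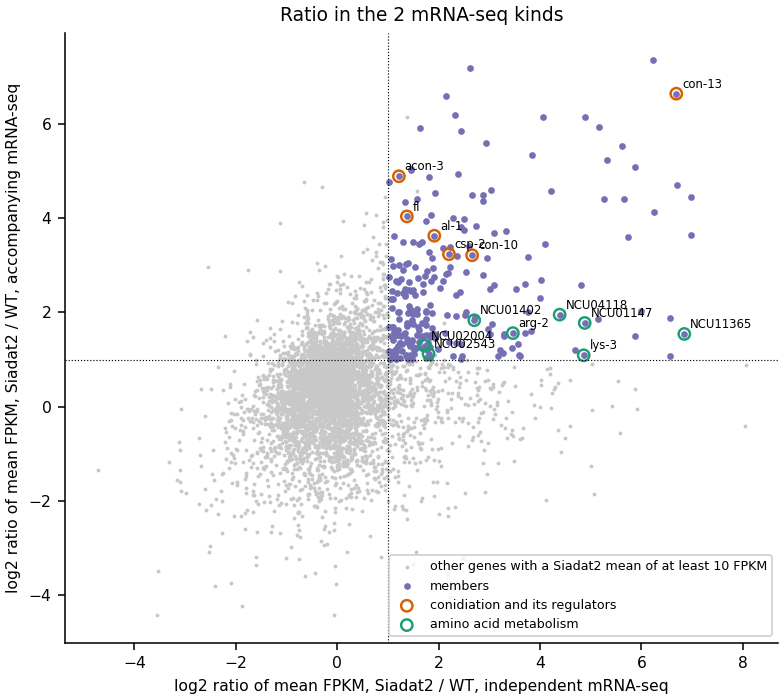
Each point is a gene with a mean of at least 10 FPKM in the libraries labelled Si*adat2* of both kinds and WT means above 0, placed by its log2 ratio of mean FPKM (Si*adat2* over WT) in the independent kind (horizontal) and the accompanying kind (vertical). The 241 members lie right of and above the dotted lines at a ratio of 2, conidiation members spread upwards, and amino acid members spread to the right.

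Members with the larger ratio in the accompanying kind numbered 137, and 104 had the larger ratio in the independent kind. This order turned with libraries scaled to the same median gene, which gave 100 and 141. For 132 members the ratios of both kinds lay within 2 times of each other. The ratio was over 2 times larger in the accompanying kind for 68 members and in the independent kind for 41 (44 and 52 after that scaling). Among the 68, the level in the accompanying kind relative to the independent kind had a median log2 value of 0.72 under the Si*adat2* label and -0.80 in WT. Among the 41 it was -0.71 under the Si*adat2* label and 1.51 in WT. Over the 4751 genes with a Si*adat2* mean of at least 10 FPKM in both kinds it was 0.39 under the Si*adat2* label and close to 0 in WT. Against that baseline the WT level moved more between the kinds than the Si*adat2* level in both groups. The groups were chosen by the split between the ratios, so a gap between the medians of the labels was fixed in advance.

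Of the 241 members, 26 have a gene symbol and 56 have either a symbol or a protein description other than hypothetical protein, and the other 185 are known here by their identifier. The annotated members were grouped by role after their values had been seen. With libraries scaled to the same median gene, 31 of the 46 members placed in a role still met the criteria. These were all 6 of conidiation, all 7 of the cell wall and secreted enzymes, all 4 of receptors, kinase and cell fusion and all 2 of transport. They were also 3 of 4 of carbon and glycerol metabolism, 5 of 8 of amino acid metabolism and 2 of 6 of gene expression and protein turnover. The rest were 1 of 5 of nucleotide and one-carbon metabolism, 1 of 2 of cofactors and 0 of 2 of sulfate and nitrate.

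Genes of conidiation and its regulators gave 6 members, with a median ratio of 4.19 in the independent kind and 14.4 in the accompanying kind, against 3.48 and 4.04 over all members. *con-13* (NCU07324, NC12 chromosome IV from 4367319 to 4368460), a gene expressed during conidiation, had 150.0 and 172 FPKM in the independent libraries labelled Si*adat2*, against 1.82 and 1.30 FPKM in WT. In the accompanying libraries it had 161 and 136 FPKM under the Si*adat2* label, against 0 and 2.98 FPKM in WT (0 and 9 reads). Its ratios of 103 and 99.7 made it the member with the largest value of the smaller ratio, and all 4 Si*adat2* libraries were far above all 4 WT libraries. The next annotated gene, *con-10* (NCU07325, chromosome IV from 4364944 to 4365763), is also expressed in conidiating cultures. It had 593 and 769 FPKM in the independent libraries labelled Si*adat2*, against 115 and 99.9 FPKM in WT. The accompanying libraries gave 137 and 165 FPKM under the Si*adat2* label, against 10.6 and 21.9 FPKM in WT. WT mycelia thus held *con-10* mRNA in both kinds, while *con-13* was below 3 FPKM in each WT library.

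The regulators of conidiation were higher too, and with larger ratios in the accompanying kind. *fl* (NCU08726), which encodes the zinc cluster transcription factor needed for conidiation, had 252 and 229 FPKM in the independent libraries labelled Si*adat2*, against 94.8 and 90.8 FPKM in WT. Its accompanying levels were 367 and 382 FPKM under the Si*adat2* label, against 23.97 and 21.6 FPKM in WT. The Si*adat2* levels of *fl* were of similar height in both kinds and the WT levels were lower in the accompanying kind. *acon-3* (NCU07617), needed early in conidiophore formation, had 16.7 and 11.1 FPKM in the independent libraries labelled Si*adat2*, against 6.98 and 4.996 FPKM in WT. In the accompanying libraries it had 439 and 466 FPKM under the Si*adat2* label, against 14.4 and 16.2 FPKM in WT. The independent libraries of *acon-3* came close to each other, and its ratio there, 2.32, was among the lower ones, whereas its accompanying ratio was 29.6.

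*csp-2* (NCU06095) encodes a Grainyhead-like factor needed for the spores to separate. It had 159 and 133 FPKM in the independent libraries labelled Si*adat2*, against 31.8 and 31.7 FPKM in WT, and 278 and 289 FPKM in the accompanying libraries labelled Si*adat2*, against 33.3 and 27.0 FPKM in WT. *al-1* (NCU00552), the phytoene desaturase of carotenoid synthesis, had 889 and 998 FPKM under the Si*adat2* label and 248 and 252 FPKM in WT in the independent kind. Its accompanying ratio was 12.3, against 3.77 in the independent kind. Of these 6 conidiation members, 5 had the larger ratio in the accompanying kind, and *con-13* was the exception by a small margin.

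Of the 6 markers checked above, *con-6*, *con-8* and *eas* were not members, but were also higher where they had a value. Some genes of the wider list given below were called lower. *con-6* missed the ratio in the independent kind narrowly, with 3234 and 4496 FPKM in the libraries labelled Si*adat2* and 1961 and 1939 FPKM in WT (ratio 1.98), and had a ratio of 15.6 in the accompanying kind. *con-8* had ratios of 1.59 and 6.55. *eas*, with an accompanying ratio of 49.9, was not analysed in the independent kind, where genes not listed in every table were left out. Of the 20 genes on a list of conidiation and hydrophobin markers, 5 were members (2.69% of all 8949 genes were). Among all of its tested genes limma called 10 of 17 higher and 3 lower in the independent kind, with a median log2 fold change of 0.84, and edgeR called 11 of 19 higher and 6 lower in the accompanying kind, with a median of 1.32. Over all genes 20.9% were called higher and 28.3% lower in the independent kind and 23.9% and 25.9% in the accompanying kind, with medians of -0.14 and 0.03.

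**Figure D2:**
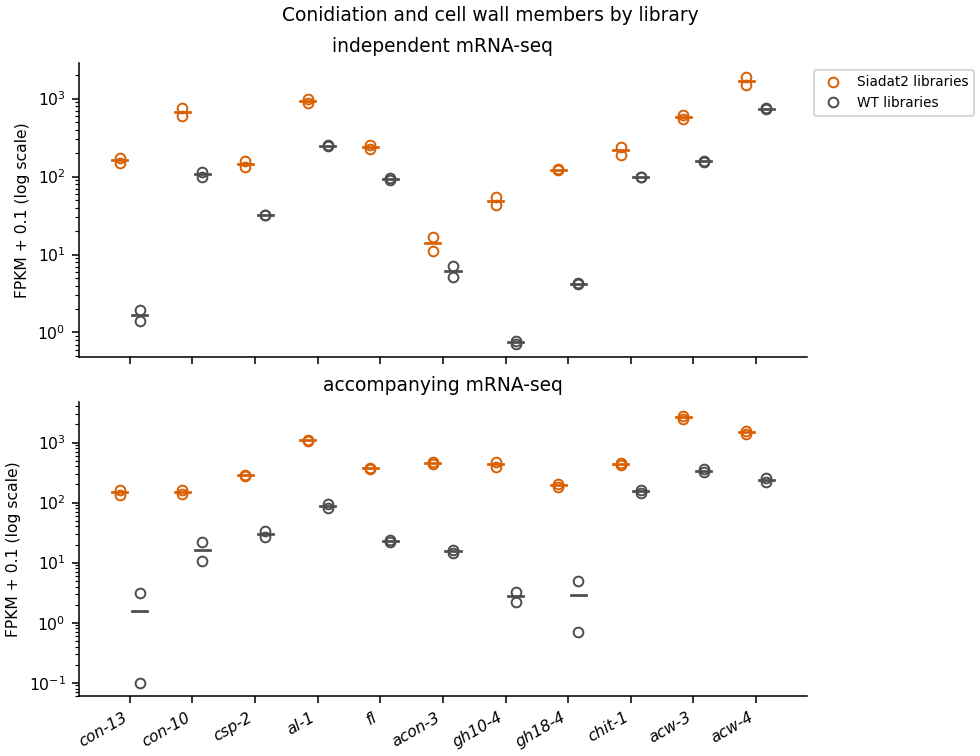
FPKM plus 0.1 on a log axis for 6 conidiation and 5 cell wall or secreted enzyme members, in the independent (top) and accompanying (bottom) mRNA-seq, with each circle a library and each bar the mean of 2 libraries. The libraries labelled Si*adat2* lie above the WT libraries for every gene, and the distance is largest for *con-13* and *gh10-4*.

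Genes for cell wall proteins and secreted carbohydrate enzymes made up another group of 7 members. *gh10-4* (NCU07130, chromosome VI from 47075 to 48564), a glycoside hydrolase gene, had 54.0 and 42.7 FPKM in the independent libraries labelled Si*adat2*, against 0.617 and 0.679 FPKM in WT. It had 467 and 396 FPKM in the accompanying libraries labelled Si*adat2*, against 3.19 and 2.10 FPKM in WT. Its accompanying ratio of 163 was the largest of all members in that kind, and rested on 5 and 8 WT reads. *gh18-4* (NCU04883), of the glycoside hydrolase family that holds fungal chitinases, had 120.1 and 124 FPKM under the Si*adat2* label and 4.22 and 4.02 FPKM in WT in the independent kind. The accompanying libraries gave 205 and 182 FPKM under the Si*adat2* label, against 0.592 and 4.88 FPKM in WT. The WT libraries of the accompanying kind, with 1 and 20 reads of *gh18-4*, differed from each other more than those of the independent kind.

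The chitinase gene *chit-1* had ratios of 2.22 and 2.88, and NCU03098, a glycosyl hydrolase, of 2.76 and 32.3 in the independent and accompanying kinds. The anchored cell wall protein genes *acw-3* and *acw-4* were among the members with high levels. *acw-3* had 609 and 550.2 FPKM in the independent libraries labelled Si*adat2*, against 155 and 159.9 FPKM in WT, and 2811 and 2419 FPKM in the accompanying libraries labelled Si*adat2*, against 363 and 319 FPKM in WT. *acw-4* had 1489 and 1921 FPKM under the Si*adat2* label and 747 and 745 FPKM in WT in the independent kind, with an accompanying ratio of 6.23. Of the 7 genes, 6 had the larger ratio in the accompanying kind (5 with libraries scaled to the same median gene, where *chit-1* turned), the exception being *gh13-2*, which was listed at 0 in a WT library of the independent kind.

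*cpc-1* (NCU04050, chromosome VI from 2565204 to 2567073), the activator of cross-pathway control, was a member with high levels. It had 2172 and 1820 FPKM in the independent libraries labelled Si*adat2*, against 528 and 537 FPKM in WT. It had 914 and 1342 FPKM in the accompanying libraries labelled Si*adat2*, against 325 and 449.9 FPKM in WT. Its ratios of 3.75 and 2.91 lay close together, and the libraries of the labels were well apart in both kinds.

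The 8 members of amino acid metabolism all had the larger ratio in the independent kind, with a median of 15.98 there and 2.93 in the accompanying kind. *arg-2* (NCU07732), the small subunit of the carbamoyl phosphate synthetase of arginine synthesis, had 277 and 218 FPKM in the independent libraries labelled Si*adat2*, against 22.0 and 22.9 FPKM in WT. Its accompanying levels were 101 and 113 FPKM under the Si*adat2* label, against 37.1 and 35.7 FPKM in WT. *arg-2* was lower under the Si*adat2* label and higher in WT in the accompanying kind than in the independent kind. *lys-3* (NCU03010), the large subunit of the aminoadipate-semialdehyde dehydrogenase of lysine synthesis, had 81.1 and 61.3 FPKM in the independent libraries labelled Si*adat2*, against 2.52 and 2.38 FPKM in WT. In the accompanying libraries it had 40.8 and 38.9 FPKM under the Si*adat2* label, against 19.0 and 18.5 FPKM in WT. The ratio of *lys-3* was 29.1 in the independent kind and 2.13 in the accompanying kind, close to the limit of the rule.

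NCU04118, an aspartokinase, which catalyses the first step from aspartate to threonine and methionine, had 110.4 and 115 FPKM in the independent libraries labelled Si*adat2*, against 5.31 and 5.46 FPKM in WT. The accompanying libraries gave 37.8 and 35.6 FPKM under the Si*adat2* label, against 14.4 and 4.57 FPKM in WT. The WT libraries of this gene differed by about 3 times in the accompanying kind and agreed closely in the independent kind. NCU02004, the phosphoserine phosphatase of serine synthesis, had ratios of 3.31 and 2.45 in the independent and accompanying kinds, and NCU02543, an aspartate aminotransferase, of 3.48 and 2.18.

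The largest ratio of the group belonged to NCU11365 (chromosome IV from 191867 to 194669), described as an aminotransferase. It had 1568 and 1784 FPKM in the independent libraries labelled Si*adat2*, against 13.98 and 15.2 FPKM in WT. It had 774 and 825 FPKM in the accompanying libraries labelled Si*adat2*, against 266 and 283 FPKM in WT. Its ratio was thus 115 in the independent and 2.91 in the accompanying kind, and the WT levels set the difference more than the Si*adat2* levels. Enzymes that break down amino acids were also members. NCU01402, an indoleamine 2,3-dioxygenase, which opens the indole ring of tryptophan, had ratios of 6.51 and 3.56. NCU01147, a tyrosine decarboxylase, had ratios of 29.5 and 3.42.

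**Figure D3:**
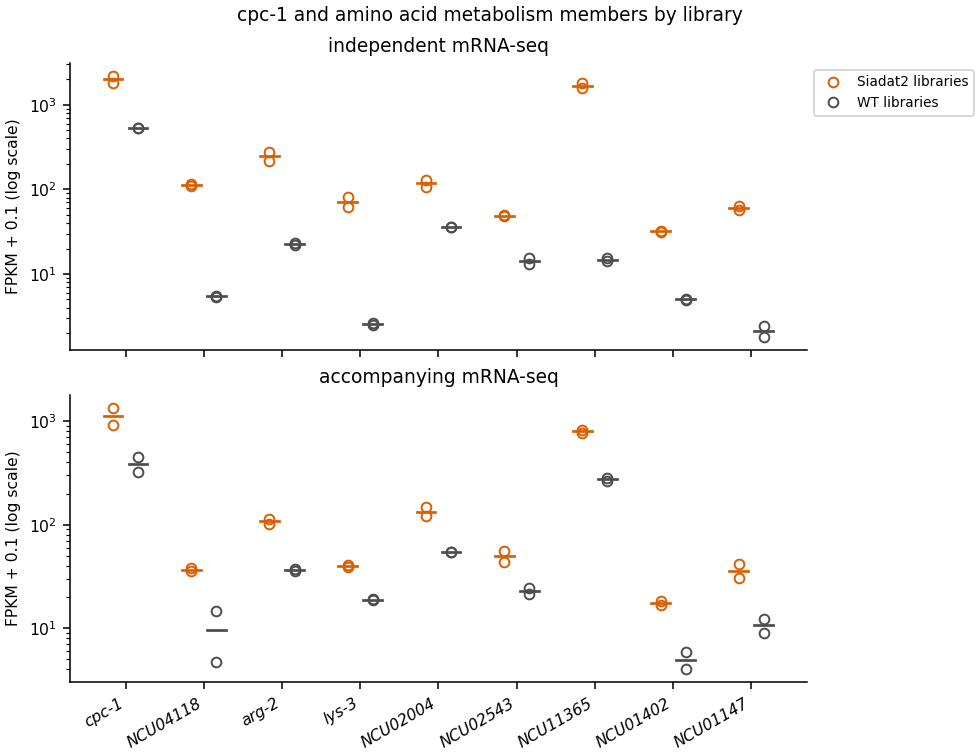
FPKM plus 0.1 on a log axis for *cpc-1* and 8 members of amino acid metabolism in the independent (top) and accompanying (bottom) mRNA-seq, with each circle a library and each bar the mean of 2 libraries. The distance between the libraries labelled Si*adat2* and the WT libraries is wider in the independent kind, as for NCU11365 with ratios of 115 and 2.91.

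Of all 8949 genes 2.69% were members, and most genes of amino acid synthesis were not. On a list of 94 such genes, chosen by symbol and description, 4 were members (*arg-2*, *lys-3*, NCU02004 and NCU04118). With libraries scaled to the same median gene the accompanying log2 ratios of *lys-3* (0.73) and NCU02004 (0.94) were below the limit of 1. In the independent kind limma called 73 of the 94 higher and 6 lower, with a median log2 fold change of 1.89. Over all genes there, 20.9% were called higher and 28.3% lower, with a median of -0.14. In the accompanying kind edgeR called 9 higher and 49 lower, with a median of -0.37. Over all genes there, 23.9% were called higher and 25.9% lower, with a median of 0.03. None of the other genes that the study names by symbol was a member. *arg-12* had 308 and 280.0 FPKM in the independent libraries labelled Si*adat2*, against 38.2 and 36.9 FPKM in WT, but 86.3 and 90.5 FPKM in the accompanying libraries labelled Si*adat2*, against 149.6 and 151 FPKM in WT. The independent and accompanying ratios were 8.44 and 0.835 for *trp-3*, 3.30 and 0.827 for *trp-1*, 6.74 and 1.18 for *his-3* and 4.18 and 0.794 for *leu-6*. *leu-6* encodes a leucyl-tRNA synthetase, and *his-3* is also the locus that carries the construct.

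For the lists that follow, the shares of all genes called higher and lower were 20.9% and 28.3% in the independent kind and 23.9% and 25.9% in the accompanying kind. Members were 2.69% of the 8949 genes with a value in both kinds. At that share a short list can hold no member, so nothing is read from an empty list. Genes of aminoacyl-tRNA synthetases held no member among 29 on the list, with 20 called higher and 3 lower in the independent kind and 1 called higher and 17 lower in the accompanying kind. The list of 7 genes of the quinic acid cluster held none either, with 6 called lower in the independent kind and 7 called higher in the accompanying kind. Lists of heat shock proteins and chaperones (25 genes), of proteasome and ubiquitin proteins by description (48), of RNA interference (10) and of oxidative stress enzymes (18) also held no member, nor did lists of cytochrome P450 and related oxidoreductases (12), transcription factors by description (12) and mating type or heterokaryon incompatibility genes (9). Only 51 of the 241 members have a protein description, so the lists by description miss members without one. Such members are *ubi*, a ubiquitin gene, and the transcription factor genes *fl*, *csp-2* and *cpc-1*. Of 82 ribosomal protein genes 1 was a member, NCU06048, which encodes ribosomal protein S30. It had 822 and 694 FPKM in the independent libraries labelled Si*adat2*, against 193 and 189 FPKM in WT, and an accompanying ratio of 2.32. limma called 7 of the ribosomal protein genes higher and 0 lower in the independent kind (20.9% and 28.3% over all genes), and edgeR called 3 higher and 67 lower in the accompanying kind (23.9% and 25.9% over all genes), with NCU06048 among those called higher in both. With libraries scaled to the same median gene its accompanying log2 ratio was 0.85, below the limit of 1 that a ratio of 2 gives.

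Nucleotide and one-carbon metabolism gave 5 members, all with the larger ratio in the independent kind. *ad-8* (NCU09789), the adenylosuccinate synthetase of AMP synthesis, had 176 and 153 FPKM in the independent libraries labelled Si*adat2*, against 29.8 and 31.2 FPKM in WT. It had 111 and 106 FPKM in the accompanying libraries labelled Si*adat2*, against 53.9 and 53.6 FPKM in WT. NCU02979, an AMP deaminase, which turns AMP into IMP, had ratios of 3.36 and 2.04, and NCU01945, an IMP-specific nucleotidase, of 2.71 and 2.13. NCU05264, a pyrimidine nucleotidase, had ratios of 12.97 and 2.94. NCU09911, a formyltetrahydrofolate deformylase, had 160.0 and 82.8 FPKM in the independent libraries labelled Si*adat2*, against 31.6 and 36.4 FPKM in WT, and its Si*adat2* libraries differed from each other by nearly 2 times.

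NCU10351, a pyridoxine kinase, which acts in making the cofactor of aminotransferases, had ratios of 11.9 in the independent and 2.53 in the accompanying kind. NCU05421, described as a lipoyltransferase and lipoate-protein ligase, had 4.63 and 2.59. NCU09896, an adenylyl-sulfate kinase, which activates sulfate for its reduction, had 510.5 and 843 FPKM in the independent libraries labelled Si*adat2*, against 57.5 and 54.8 FPKM in WT. In the accompanying libraries it had 957 and 1058 FPKM under the Si*adat2* label, against 458 and 482 FPKM in WT. *nit-3* was low in all libraries, with 9.47 and 10.6 FPKM in the independent libraries labelled Si*adat2*, against 1.13 and 1.05 FPKM in WT. These genes of cofactors, sulfate and nitrate also had the larger ratio in the independent kind.

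The 4 members of carbon and glycerol metabolism were split. NCU04016, a phosphoglycerate mutase by description, had 385 and 459 FPKM in the independent libraries labelled Si*adat2*, against 15.4 and 14.6 FPKM in WT, and a ratio of 5.95 in the accompanying kind. NCU06783, ATP citrate lyase, which makes acetyl-CoA for lipid synthesis, had ratios of 2.17 and 12.3, with 396 and 454 FPKM in the accompanying libraries labelled Si*adat2*, against 24.2 and 44.7 FPKM in WT. *gcy-1* had 2.75 and 5.48, and NCU00742, a glycerol-3-phosphate dehydrogenase, 2.69 and 2.48. Members of the same pathway area thus leaned to either kind.

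Among genes of sensing and cell fusion, *gpr-4*, a G protein-coupled receptor gene, had 26.2 and 30.1 FPKM in the independent libraries labelled Si*adat2*, against 6.01 and 5.50 FPKM in WT. Its accompanying levels were 62.4 and 61.1 FPKM under the Si*adat2* label, against 3.63 and 4.11 FPKM in WT. *Prm1*, which acts in the merger of plasma membranes during cell fusion, had ratios of 5.68 and 13.5. *gpr-6* had 3.06 and 2.60, and the kinase gene *stk-29* 2.80 and 3.39. Of the 4 genes, *gpr-6* had the larger ratio in the independent kind, and under median scaling *stk-29* did too.

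In gene expression and protein turnover, NCU01468, the delta subunit of eIF2B, the exchange factor that recharges eIF2 for initiation, had 89.5 and 87.0 FPKM in the independent libraries labelled Si*adat2*, against 25.6 and 24.7 FPKM in WT. It had 44.8 and 44.4 FPKM in the accompanying libraries labelled Si*adat2*, against 16.03 and 20.8 FPKM in WT. *ubi* (NCU05995), a ubiquitin gene, had 1580.2 and 2302 FPKM in the independent libraries labelled Si*adat2*, against 936 and 877 FPKM in WT. Its ratios were 2.14 and 2.66, and its reads may be shared with other genes that hold ubiquitin repeats. NCU07668, an MFS multidrug transporter, and NCU07320, a phosphatidylinositol transporter, were the 2 members on a list of 14 permeases and transporters, with ratios of 4.24 and 10.3 and of 2.52 and 2.96. Over all 8949 genes 2.69% were members. Of the 14, limma called 5 higher and 7 lower in the independent kind (20.9% and 28.3% over all genes). In the accompanying kind edgeR called 3 higher and 5 lower (23.9% and 25.9% over all genes).

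**Figure D4:**
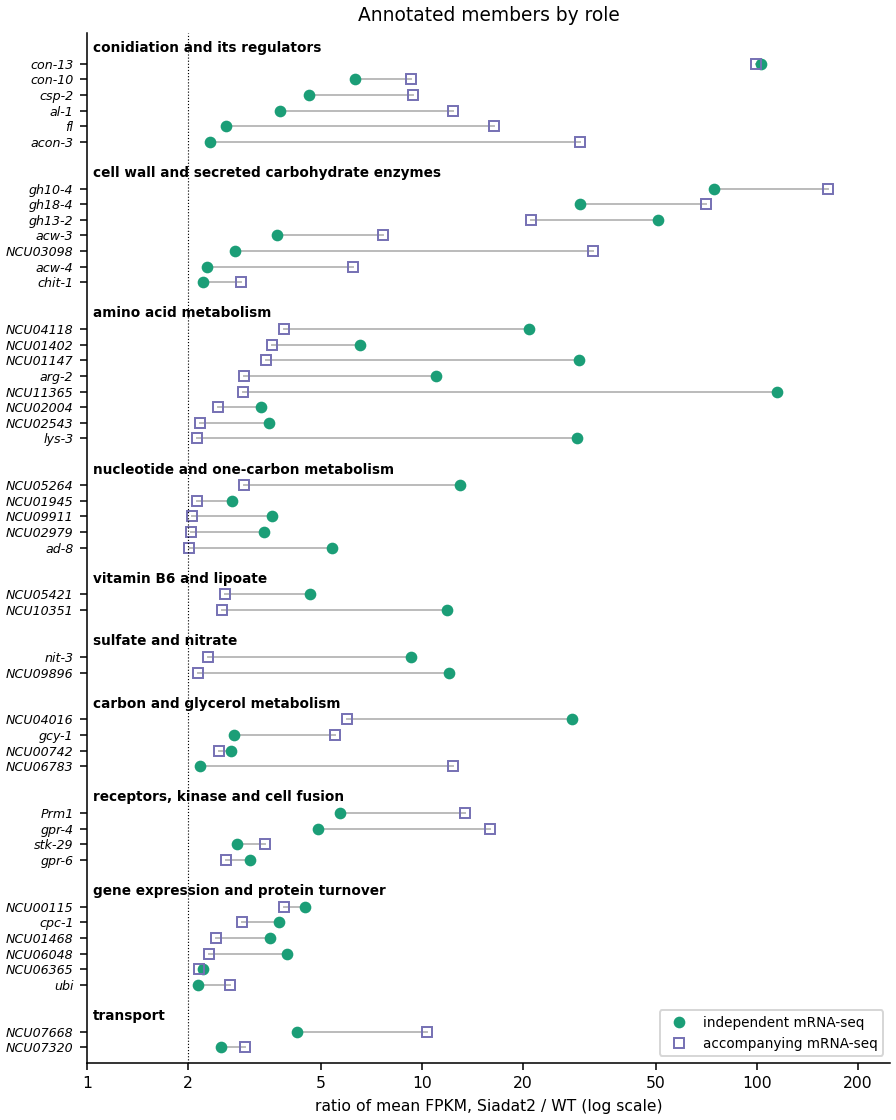
Ratio of mean FPKM, Si*adat2* over WT, on a log axis for annotated members grouped by role, in the independent (filled circles) and accompanying (open squares) mRNA-seq; the dotted line marks a ratio of 2. Circles lie right of the squares for all 8 amino acid and all 5 nucleotide and one-carbon genes, and left of them for 5 of 6 conidiation genes and 6 of 7 cell wall and secreted enzyme genes (5 under median scaling, where *chit-1* turns).

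The members with the highest level in the independent kind under the Si*adat2* label were NCU08390, *cpc-1*, *ubi*, NCU11356 and NCU06301. NCU08390 (chromosome I from 5505815 to 5506676), a hypothetical protein, had 1894 and 2409 FPKM in the independent libraries labelled Si*adat2*, against 35.5 and 31.8 FPKM in WT. It had 1514 and 1931 FPKM in the accompanying libraries labelled Si*adat2*, against 356 and 486 FPKM in WT. NCU11356, described as a phenazine biosynthesis PhzC/PhzF protein, had 1534 and 2010.1 FPKM under the Si*adat2* label and 19.9 and 17.4 FPKM in WT in the independent kind. The accompanying libraries gave 1109 and 1079 FPKM under the Si*adat2* label, against 294 and 302 FPKM in WT. NCU06301, a hypothetical protein, had ratios of 35.2 and 3.61. For these 3 genes the WT libraries of the accompanying kind held far more mRNA relative to other genes than those of the independent kind.

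Of the 10 members with the largest smaller ratio, 7 have no symbol and no description. NCU06010 had 76.7 and 62.8 FPKM in the independent libraries labelled Si*adat2*, against 1.61 and 1.89 FPKM in WT, and 117 and 120.4 FPKM in the accompanying libraries labelled Si*adat2*, against 4.93 and 1.42 FPKM in WT. NCU03861 had 158 and 152 FPKM under the Si*adat2* label and 4.61 and 4.08 FPKM in WT in the independent kind. Its accompanying ratio of 60.9 rested on 2 and 33 WT reads. NCU09650 had ratios of 58.8 and 34.1, NCU04490 of 104 and 26.1, and NCU02329 of 38.2 and 21.2. The smaller ratio of each of these 5 genes was at least 21.2. Their WT reads over both accompanying libraries were few, from 5 for NCU04490 to 35 for NCU03861. NCU05932 had 8.01 and 15.7 FPKM in the independent libraries labelled Si*adat2*, against a WT library listed at 0 and one at 0.484 FPKM, and an accompanying ratio of 46.0.

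Low WT values limit some ratios. The largest independent ratios, both 126, were those of NCU00947 and NCU04169. NCU00947, a hypothetical protein named after its values were seen, had 192 and 274 FPKM under the Si*adat2* label, against 0 and 3.70 FPKM in WT, and an accompanying ratio of 12.4. NCU04169 had 24.6 and 21.4 FPKM under the Si*adat2* label, against 0.176 and 0.189 FPKM in WT. The accompanying reads of NCU04169 were 94 under the Si*adat2* label and 2 in WT, and the ratio of its read shares was 36.1 with an exact 95% counting interval of 9.72 to 303. It was among 11 members with 3 or fewer WT reads over both accompanying libraries. NCU04197, a CipC protein, had 588 accompanying reads under the Si*adat2* label and 3 in WT (ratio of read shares 151, interval 51.3 to 732), but a ratio of 6.17 in the independent kind. Its WT level of 40.1 and 39.2 FPKM in the independent kind was well above the 1.71 and 1.41 FPKM of the accompanying kind, and the interval leaves it among the members with the widest split between kinds. The intervals cover counting error only. In the independent kind 7 members were listed at 0 in 1 WT library and 26 carried a low-data status in 1 or more tables. Without the members that had such a value or 3 or fewer WT reads, 201 were left.

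The widest differences between the ratios were seen for genes with the larger independent ratio such as NCU04583, an acetyltransferase, with 693 and 873 FPKM in the independent libraries labelled Si*adat2*, against 0 and 16.5 FPKM in WT. Its accompanying levels were 1256 and 1157 FPKM under the Si*adat2* label, against 601 and 549 FPKM in WT. The listed 0 of a gene with this level in the other kind may be a failed estimate. In the other direction stood *tnr-1*, with 29.6 and 26.4 FPKM under the Si*adat2* label and 4.995 and 6.15 FPKM in WT in the independent kind, and 113 and 141 FPKM under the Si*adat2* label and 2.46 and 1.01 FPKM in WT in the accompanying kind. NCU09734 had an independent ratio of 2.02 and an accompanying one of 27.3, with 1236 and 1145 FPKM in the accompanying libraries labelled Si*adat2*, against 39.3 and 48.0 FPKM in WT. These 3 genes were named after their values had been seen.

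The ratio limit of 2 cut through a continuous range, and 82 members had a smaller ratio under 2.5. The members nearest to the limit were NCU04775, a nicotinamide N-methyltransferase, with ratios of 2.24 and 2.00, NCU09196 with 2.07 and 2.01, and *pdx-3* with 2.62 and 2.01. The gene symbol of *pdx-3* (NCU03068) and its protein description, glycerol-3-phosphate phosphatase, name different functions, so no role is given for it. Just outside lay NCU03273 with an accompanying ratio of 1.997, NCU00633 with 1.992 and NCU06557 with 1.992, each above 2 in the independent kind.

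Codon bias and coding length were not used by the rule. The codon bias index of the members (CBI, high where a gene uses the preferred codons of the genome) had a median of 0.212 and a range of -0.166 to 0.705. This was lower than the median of 0.262 over the 4751 genes with a Si*adat2* mean of at least 10 FPKM in both kinds, the level that the rule required, and close to the 0.211 over all 9015 genes with a deposited index. The upper quartile was 0.324 over the members, against 0.400 over the genes of that minimum level. The highest indices belonged to *ad-8* (0.705), *gcy-1* (0.689) and *acw-3* (0.683), and the lowest to NCU10603 (-0.166), NCU08307 (-0.036) and NCU00646 (-0.024). Both ends held genes of high level, since NCU10603 reached 643 and 918 FPKM in the independent libraries labelled Si*adat2*, against 171 and 135 FPKM in WT. The median coding length of the members was 1480 bases as listed, against 1520 bases over all genes.

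**Figure D5:**
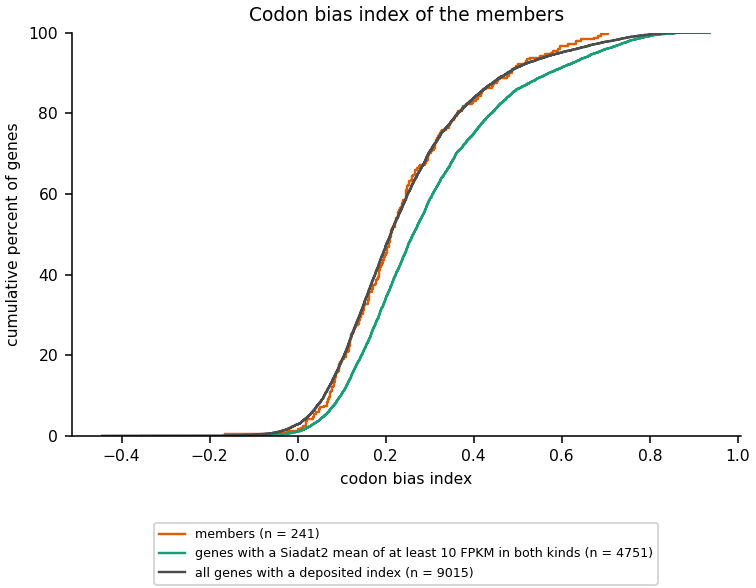
Cumulative percent of genes (vertical) by codon bias index (horizontal) for the 241 members, for 4751 genes with a Si*adat2* mean of at least 10 FPKM in both kinds and for 9015 genes with a deposited index. The curve of the members follows that of all genes (medians 0.212 and 0.211) and lies left of the genes of that minimum level (median 0.262).

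The members lay on all 7 chromosomes. Chromosome IV held 49 of them (20.3%, against 14.9% of the genes of the minimum level) and chromosome III 18 (7.47%, against 12.6%). In the order of annotated genes on NC12, 18 members (7.47%) were next to another member, in 9 pairs and no longer run. Of the 1141 genes above 2-fold in the independent kind, 26.1% were next to another. A larger set holds more neighbours by its size, and its part in this share was not tested, so the shares are not compared. The pairs included *con-10* with *con-13*, *gcy-1* with *cut-1*, *acon-3* with NCU07618, *gpr-6* with NCU09196 and *Prm1* with NCU09336. *gcy-1* and *cut-1* (chromosome IV from 747091 to 752599) had ratios of 2.75 and 2.98 in the independent kind and 5.48 and 4.21 in the accompanying kind. The annotated spans of 49 members overlap those of other genes, among them NCU11365, NCU06301, *gpr-4*, *acw-4*, *chit-1* and *ad-8*. Whether the counting used strand is not given in the sources used here, and such reads cannot be told apart without it.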

How the data were processed

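The 8 mRNA-seq libraries were grouped by strain and kind from their labels. The authors deposited 3 values per gene for the accompanying libraries: a count of uniquely mapped reads (Bowtie2, reads under 25 nt discarded), its FPKM, and the codon bias index, a CodonW score. The tables the authors deposited for the independent libraries hold FPKM per transcript in the Cufflinks layout, and TopHat2 and Cufflinks are named, without versions, in the submitters' processing notes. FPKM was added up over the annotated transcripts of each gene. A gene was left out if any of them was not listed in all 4 independent tables. The codon occupancies of the 4 ribosome profiling libraries hold no value per gene and were not used.

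limma 3.58.1 in R 4.3.3 was fitted with a variance trend to log2(FPKM + 0.1), for genes averaging at least 1 FPKM. edgeR 4.0.16 (TMM, filterByExpr with a minimum count of 10, quasi-likelihood test) was fitted to the accompanying counts as deposited. The Benjamini-Hochberg threshold was 0.05 over all genes fitted. No replicate block was used in these fits. In the accompanying kind the study describes 2 experiments with a library of each strain, and deviations of same-numbered libraries from the strain means correlated at 0.415 over genes, while in the independent kind only the number is shared (0.0689). DESeq2 1.42.0 was an alternative. All tools were first tested on simulated data. Python 3.11.15 with pandas 2.3.3, numpy 2.4.6, scipy 1.17.1 and matplotlib 3.10.9 did the rest. Replicates are described as biological by the study, and the culture behind each library is not labelled, so the spread between the 2 libraries of a group may be partly technical.

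The members and the gene lists were chosen with earlier results of these data known. The genes named are the 10 with the largest smaller ratio, the 5 with the highest level, up to 6 members of each list, 3 on each side of the limit, the genes the study names by symbol, and the 3 highest and 3 lowest codon bias indices; other genes were named after their values were seen. Symbols and positions come from the NCBI table of NC12, and protein descriptions from the annotation column of the study's proteome table. Promoter motifs and codon contents were not analysed here.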

Additional observations from a re-analysis of the deposited data

How the results depend on the processing

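With a ratio limit of 1.5 in place of 2, 471 genes met the criteria, and with 3, 101 did. Without a minimum level 385 did, and with at least 30 FPKM 139 did. An added 1 FPKM on each mean gave 226 genes, scaling to the median gene 188, TPM 257 (218 of them members), the first transcript alone 235, and the replicate block, with ratios taken within same-numbered libraries, 246. Leaving out 1 library gave between 236 and 253 genes. The 201 members left without weakly measured WT values came from an alternative chosen after seeing the data. limma called between 212 and 231 members under another pseudocount, no filter, median scaling and the replicate block (231), and between 140 and 218 with a library left out, the lowest without WT replicate 2 and the next, 148, without WT replicate 1. With a WT library left out, the lone one is assumed to vary like the others. edgeR called 233 members with the replicate block, 229 with RLE factors, 232 without a filter and between 209 and 226 with a library left out, and DESeq2 called 199. The block changed no other count by over 1.5 times. The median codon bias index was 0.195 for the members under a ratio limit of 3 and 0.228 for those with at least 30 FPKM. None of the log2 ratios of the 35 named members reversed under 554 combinations of gene, kind and setting. The rule required a ratio above 2 and libraries that did not overlap. A library left out, pairing or an added pseudocount thus could not reverse a ratio, and nothing is read from this. Of the 554 combinations, 44 moved by more than the spread between libraries. The causes of these moves were not tested. The alternatives for the promoter motif were not run. The depth of the accompanying libraries limits ratios with few WT reads, and that of the independent libraries is unknown.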
